A study of Mus musculus with 72 samples.

Results

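The 9 genes described here encode the enzymes, transporters and identity factors by which autonomic neurons of the heart are usually recognised: Chat, Slc5a7, Slc18a3, Ache and Bche on the cholinergic side, Th and Dbh on the catecholaminergic side, and Phox2a and Prph as markers of the neurons themselves. They were chosen by name, not by their values, and each was found by its Ensembl identifier, so that 9 of the 53715 genes in the count files are reported. RNA was sequenced from 18 male C57BL/6J-background mice aged 18 weeks, from a line in which exon 3 of Gnb5 is deleted in the germline and therefore in every cell of a carrier: 6 Gnb5+/+ mice without the deletion, 6 Gnb5+/- mice with it on 1 allele and 6 Gnb5-/- mice with it on both. Atria (left and right together, with the nodal cells that lie in them) and ventricles (left and right together) were taken from all 18 mice, and cerebellum, hippocampus and cerebral cortex from the 6 Gnb5+/+ and the 6 Gnb5-/- mice, which gives 72 libraries. Each library came from 1 mouse.

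The heart receives sympathetic fibres from ganglia outside it, which release noradrenaline and speed the beat, and parasympathetic fibres that end on small ganglia embedded mainly in the atrial wall and around the nodes. Neurons of these intracardiac ganglia make acetylcholine with choline acetyltransferase (Chat), load it into vesicles with the transporter Slc18a3 and recover choline with Slc5a7, and they slow the beat. The cell bodies of most sympathetic neurons lie outside the heart, and so does most of their RNA. G protein beta 5, the product of Gnb5, pairs with RGS proteins that shorten G protein signalling, including that of muscarinic acetylcholine receptors in the atria.

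The labels were checked first. Gnb5 averaged 33.4 normalised counts scaled to library size (CPM) in Gnb5+/+ atria, 17.4 in Gnb5+/- and 2.06 in Gnb5-/-, and in each of the other tissues the Gnb5-/- mean was also lowest. A list of 6 atrial myocyte genes summed to 22224 to 39816 CPM in the 18 atrial libraries and to 177 to 535 CPM in the ventricular ones, while 6 ventricular myocyte genes summed to 393 to 1740 CPM in atria and 13394 to 23035 CPM in ventricles. Gabra6 of cerebellar granule cells was at 427 to 647 CPM in cerebellum and at most 5.05 CPM elsewhere, and C1ql2 of dentate granule cells at a median of 37.1 and at most 63.7 CPM in hippocampus and at most 3.97 CPM elsewhere. Rorb, which marks cortical layers but other regions too, was at 23.8 to 36.6 CPM in cortex and at most 15.7 CPM elsewhere. Libraries held 29204390 to 48807435 reads on genes, so that 1 read is worth a few hundredths of a CPM.

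Some libraries stood apart from their group. In the Gnb5-/- atria of replicate 4, 16 pan-neuronal genes summed to 51.6 CPM against a median of 17.4 CPM over the 18 atrial libraries, with Snap25 at 218 of the 445 reads of all 18. In the Gnb5+/- atria of replicate 4, 7 thymus and lymphocyte genes summed to 157 CPM against a median of 5.65 CPM. Choroid plexus genes summed to 628 CPM in the Gnb5-/- cerebellum of replicate 2 against 9.55 to 15.6 CPM in the other 11 cerebella, and the Gnb5+/+ hippocampus of replicate 5 (1185 CPM, the next 421 CPM) and the Gnb5-/- cortex of replicate 6 (540 CPM, the next 263 CPM) were also high for them. In the Gnb5+/+ hippocampus of replicate 6, ventricular myocyte genes summed to 57.8 CPM against 4.76 to 9.81 CPM in the other 11 hippocampi. The Gnb5-/- cortex of replicate 3 had no read of Chat and differed from the other 11 cortices in whole lists: erythroid genes summed to 180 CPM in it against 23.2 to 69.8 CPM, sensory neuron genes to 127 against 20.02 to 57.3 CPM, autonomic neuropeptide genes to 1213 against 342 to 528 CPM and pan-neuronal genes to 9090 against 5187 to 6482 CPM. The main values that rest on a few of these libraries are also given without them.

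The genes lie on 7 chromosomes of the GRCm38 assembly. Chat (ENSMUSG00000021919) spans chr14:32408203-32465989 on the minus strand, and Slc18a3 (ENSMUSG00000100241, chr14:32462438-32464850) lies inside it on the same strand, the arrangement known as the cholinergic gene locus. The annotation gives them 0 shared exon bases, so reads on exons of one were not assigned to the other. Slc5a7 (ENSMUSG00000023945) spans chr17:54273590-54299034, Ache (ENSMUSG00000023328) chr5:137287519-137294466, Bche (ENSMUSG00000027792) chr3:73635808-73708415, Phox2a (ENSMUSG00000007946) chr7:101818313-101822726 and Prph (ENSMUSG00000023484) chr15:99055174-99058978. Th (ENSMUSG00000000214) spans chr7:142892752-142931128 on the minus strand and Dbh (ENSMUSG00000000889) chr2:27165233-27183200 on the plus strand. Ache shares 98 exon bases with the lincRNA Gm42456 on the opposite strand and 0 with Mir8116 on its own strand. The antisense gene Gm2990 overlaps Chat with 0 shared exon bases. Phox2a shares 95 exon bases with Inppl1 on the opposite strand, whose counts of 7810 to 16129 in atria and 3737 to 8939 in ventricles exceed those of Phox2a by far. The strand setting of the counting is not given in the sources used here, so low counts of Phox2a are uncertain.

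Th and Dbh catalyse neighbouring steps of noradrenaline synthesis, but their levels in these tissues parted, so the 250 bases before each start are shown, from RefSeq on GRCm38.p6, 5′ to 3′ on the strand of the gene. Capitals mark ATTA or its reverse complement TAAT, the core that homeodomain proteins such as Phox2a can bind, and TGACGTCA, the palindromic cyclic AMP response element. The Th window is chr7:142899996-142900245 on the minus strand and the Dbh window chr2:27165257-27165506 on the plus strand. Both windows lie inside the gene spans given above, because the RefSeq starts differ from the outermost starts of those spans.
Th: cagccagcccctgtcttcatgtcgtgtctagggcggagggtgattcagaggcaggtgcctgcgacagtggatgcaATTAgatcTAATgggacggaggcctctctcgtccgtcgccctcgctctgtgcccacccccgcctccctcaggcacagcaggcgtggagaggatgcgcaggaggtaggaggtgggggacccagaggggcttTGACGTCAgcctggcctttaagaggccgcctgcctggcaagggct
Dbh: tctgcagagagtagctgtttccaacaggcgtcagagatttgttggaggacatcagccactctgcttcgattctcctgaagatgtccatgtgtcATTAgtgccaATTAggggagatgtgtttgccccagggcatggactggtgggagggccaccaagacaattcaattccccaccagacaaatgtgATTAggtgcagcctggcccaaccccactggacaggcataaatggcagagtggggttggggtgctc
The Dbh window held 3 ATTA cores and no TGACGTCA, and the Th window held 2 ATTA cores and 1 TGACGTCA. All 9 genes had a promoter in the table. Over both strands, ATTA occurred in 4 of the 9 windows and in 54.9% of the 32851 mouse promoter windows of this length, and TGACGTCA in 1 of 9 and in 1.55%. The shorter TGACG, which TGACGTCA contains, occurred in 4 of 9 and in 17.8%. These matches describe letters in a window and are not evidence of binding.

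Over all tissues the genes fell into an abundant and a rare group in the heart. Ache, Bche and Dbh were counted in every heart library, whereas Chat, Slc18a3, Slc5a7, Phox2a, Prph and Th stayed below 4 CPM in every heart library. The plot of all 9 genes by tissue and genotype shows both groups.

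**Figure D1:**
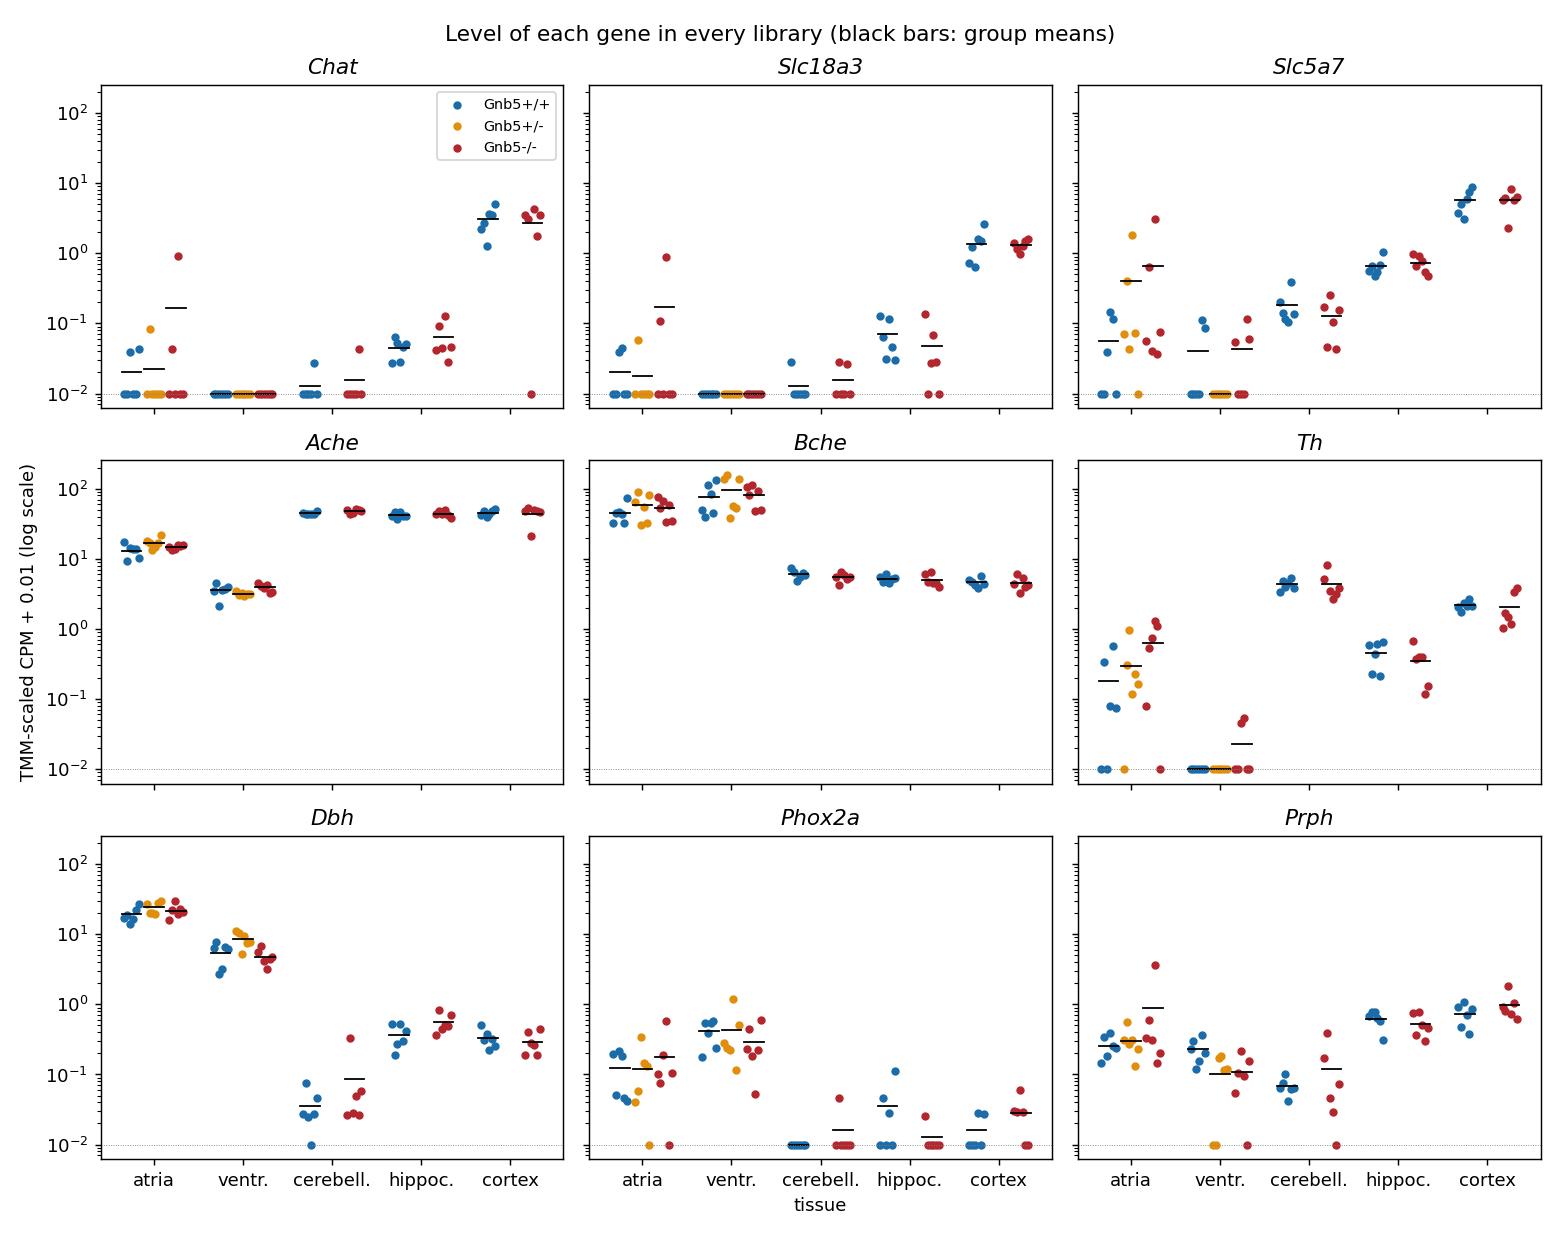
Level of the 9 genes in 72 libraries, with 1 panel a gene. The y axis is TMM-normalised CPM plus 0.01 on a log axis, the x axis the tissue, colours the genotype, each point 1 mouse and black bars group means. Ache and Dbh sit higher in atria than in ventricles in all genotypes, Bche is higher in heart than in brain, and Chat, Slc18a3 and Slc5a7 are highest in cerebral cortex.

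The transcripts that make and handle acetylcholine in neurons were close to absent in the heart outside a few atrial libraries. Chat had no read in any of the 18 ventricular libraries. In atria it had 0, 0, 1, 0, 0 and 1 reads in the 6 Gnb5+/+ libraries, 0, 3, 0, 0, 0 and 0 in the Gnb5+/- libraries and 0, 1, 0, 40, 0 and 0 in the Gnb5-/- libraries. A single Gnb5-/- library thus held 40 of the 46 atrial reads of Chat, and the other 17 libraries held 0 to 3 each. A count of 0 allows up to 3 reads, and intervals and floors here cover counting error only.

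Slc18a3, the vesicular acetylcholine transporter, followed the same pattern. Its 6 Gnb5+/+ atria had 0, 0, 1, 1, 0 and 0 reads, its Gnb5+/- atria 0, 2, 0, 0, 0 and 0 and its Gnb5-/- atria 0, 3, 0, 38, 0 and 0, with no read in ventricles. The same Gnb5-/- library held 38 of 45 atrial reads. Slc5a7, the high-affinity choline transporter of cholinergic terminals, had 0, 0, 1, 4, 3 and 0 reads in Gnb5+/+ atria. It had 2, 16, 1, 67, 2 and 0 reads in Gnb5+/- atria and 2, 19, 1, 135, 1 and 2 in Gnb5-/- atria. Its high library of the Gnb5+/- group, with 67 reads, had none of Chat and is the library with thymus transcripts, while its high Gnb5-/- library is the one with 40 reads of Chat. The 18 ventricular libraries held 8 reads of Slc5a7 in all.

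Set against ventricles within each mouse, Slc5a7 was higher in atria in 13 of 18 mice and lower in 2 (two-sided exact sign-flip permutation test over 18 pairs, p = 0.0130). Ratios of summed reads, here and below, use library totals without TMM factors. On that scale the median gene was itself 0.52 higher in atria (log2, 18 mice), so ratios of atria to ventricles lean towards atria. Summed over 6 libraries, the ratio for Slc5a7 was 1.81 in Gnb5+/+ (95% Clopper-Pearson interval 0.486 to 8.22), at least 24.0-fold in Gnb5+/-, and 35.5 in Gnb5-/- (13.6 to 132). Those of the last 2 groups rest mainly on the libraries with 67 and 135 reads: without the mouse of each, 21 reads against 0 put the Gnb5+/- ratio at least 5.87-fold, and 25 against 4 put that of Gnb5-/- at 5.69 (1.97 to 22.5). Chat and Slc18a3 were higher in atria in 5 mice each and lower in 0, with the rest at 0 in both tissues (exact p = 0.0625 for each gene). In Gnb5-/- mice, 41 atrial against 0 ventricular reads of each gene put the ratio at least 12.1-fold higher in atria against a floor of 3 reads over the group. Without the Gnb5-/- mouse of replicate 4, the other 5 held 1 atrial read of Chat and 3 of Slc18a3, which like the 2 reads of each gene in Gnb5+/+ mice were not distinguishable from 0 at this depth.

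**Figure D2:**
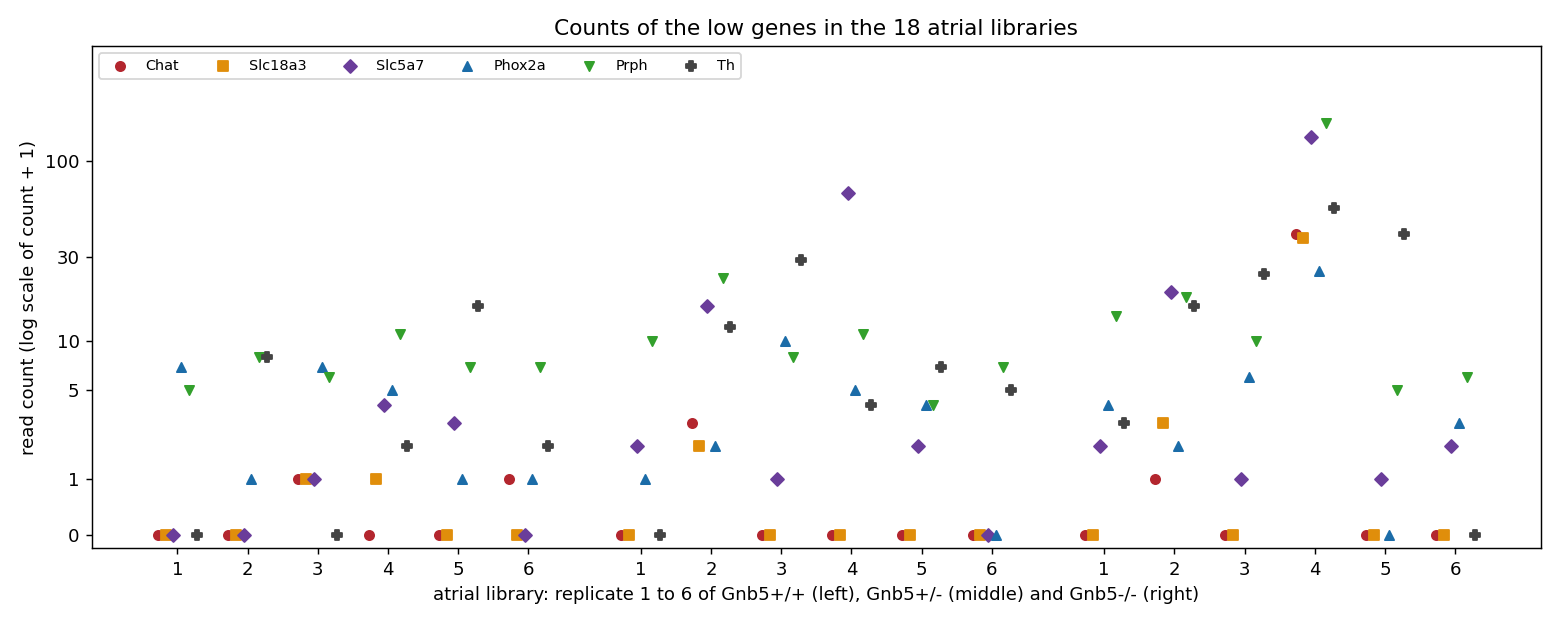
Reads of Chat, Slc18a3, Slc5a7, Phox2a, Prph and Th in the 18 atrial libraries, drawn as count plus 1 on a log axis, with libraries of replicates 1 to 6 of Gnb5+/+ on the left, Gnb5+/- in the middle and Gnb5-/- on the right, and 1 symbol a gene. The Gnb5-/- library of replicate 4 is the highest for each of the 6 genes, with 40, 38, 135, 25, 161 and 56 reads.

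The acetylcholine-degrading enzymes were abundant and ran in opposite directions between the chambers. Ache, which hydrolyses acetylcholine at synapses and on erythrocytes, lay in Gnb5+/+ atria at 9.16 CPM at the lowest, 13.6 at the median and 17.5 at the highest, and in Gnb5+/+ ventricles at 2.14, 3.64 and 4.48 CPM. In Gnb5+/- mice it ran from 13.3 over 16.9 to 21.8 CPM in atria and from 2.91 over 3.13 to 3.49 CPM in ventricles. In Gnb5-/- mice it ran from 13.1 over 14.9 to 15.8 CPM in atria and from 3.27 over 3.94 to 4.54 CPM in ventricles. Every atrial library was above every ventricular library in each genotype.

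The log2 difference of Ache between atria and ventricles was 1.84 ± 0.15 (SE) in Gnb5+/+ mice (3.57-fold; edgeR quasi-likelihood test with mouse as a block, adjusted p = 4.5e-10). It was 2.39 in Gnb5+/- (5.25-fold; edgeR adjusted p = 5.08e-12) and 1.90 in Gnb5-/- mice (3.73-fold; edgeR adjusted p = 1.35e-10). In the exact sign-flip test over 18 pairs p was 7.63e-06, the smallest such a test can give. In bulk tissue, fewer cells of a type and less RNA per cell cannot be told apart. Markers of erythroid cells moved with Ache: 6 of 6 were called higher in atria in each genotype, where 27.2% to 30.2% of all genes were. Their sum was 1594 to 11789 CPM in the 18 atria against 342 to 4022 CPM in ventricles. Over the 18 atrial libraries, that sum and Ache correlated at r = 0.21 (rho = 0.20, permutation p = 0.41 and 0.421, adjusted 0.623 and 0.574 over 15 relations). This pair was chosen after its values were seen. Without the 2 farthest mice r was 0.42, and within genotypes it was 0.73 for Gnb5+/+, 0.23 for Gnb5+/- and -0.05 for Gnb5-/- mice. The part of erythroid cells in the level of Ache was not tested.

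Bche, the broader butyrylcholinesterase, was the other way round. It lay at 32.3, 44.5 and 73.6 CPM (lowest, median, highest) in Gnb5+/+ atria and at 39.0, 66.4 and 132 CPM in Gnb5+/+ ventricles. In Gnb5+/- mice it lay at 30.1, 60.3 and 88.6 CPM in atria and at 38.3, 97.6 and 156 CPM in ventricles. In Gnb5-/- mice it lay at 33.2, 55.4 and 75.6 CPM in atria and at 47.8, 86.8 and 113 CPM in ventricles. The groups overlapped in each genotype, because mice differed widely, but within the mouse Bche was lower in atria in 17 of 18 (exact sign-flip permutation p = 2.29e-05). The log2 difference was -0.68 for Gnb5+/+ mice, -0.64 for Gnb5+/- mice and -0.62 for Gnb5-/- mice, with edgeR adjusted p of 0.000205, 0.000333 and 0.000425.

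That direction depends on the scaling of the heart tissues. Mitochondrial transcripts took 14.1% to 34.5% of atrial and 26.5% to 44.8% of ventricular reads, and in CPM without TMM factors the median gene was 0.52 higher in atria on the log2 scale. On that scale Bche differed by -0.09 on average, with 8 of 18 mice higher in atria (exact sign-flip permutation p = 0.296), and by -0.61 relative to the median gene. Ache at 2.57, Dbh at 2.39, Th at 2.02, Prph at 1.40 and Slc5a7 at 1.25 stayed higher in atria on that scale, and Phox2a at -0.81 stayed lower.

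Dbh, which converts dopamine to noradrenaline, was the most abundant catecholamine enzyme among the members in the heart and was higher in atria. In Gnb5+/+ mice it lay at 14.2, 18.0 and 27.0 CPM (lowest, median, highest) in atria and at 2.74, 6.20 and 7.86 CPM in ventricles. In Gnb5+/- mice it lay at 19.8, 23.8 and 29.8 CPM against 5.18, 8.50 and 10.999 CPM, and in Gnb5-/- mice at 15.8, 21.7 and 29.5 CPM against 3.14, 4.57 and 6.80 CPM. Atrial and ventricular libraries did not overlap in any genotype. The differences were 1.85, 1.51 and 2.17 on the log2 scale (3.60-, 2.84- and 4.51-fold) in Gnb5+/+, Gnb5+/- and Gnb5-/- mice, with edgeR adjusted p of 5.21e-09, 7.14e-08 and 2.81e-10, and all 18 mice were higher in atria (exact p = 7.63e-06).

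**Figure D3:**
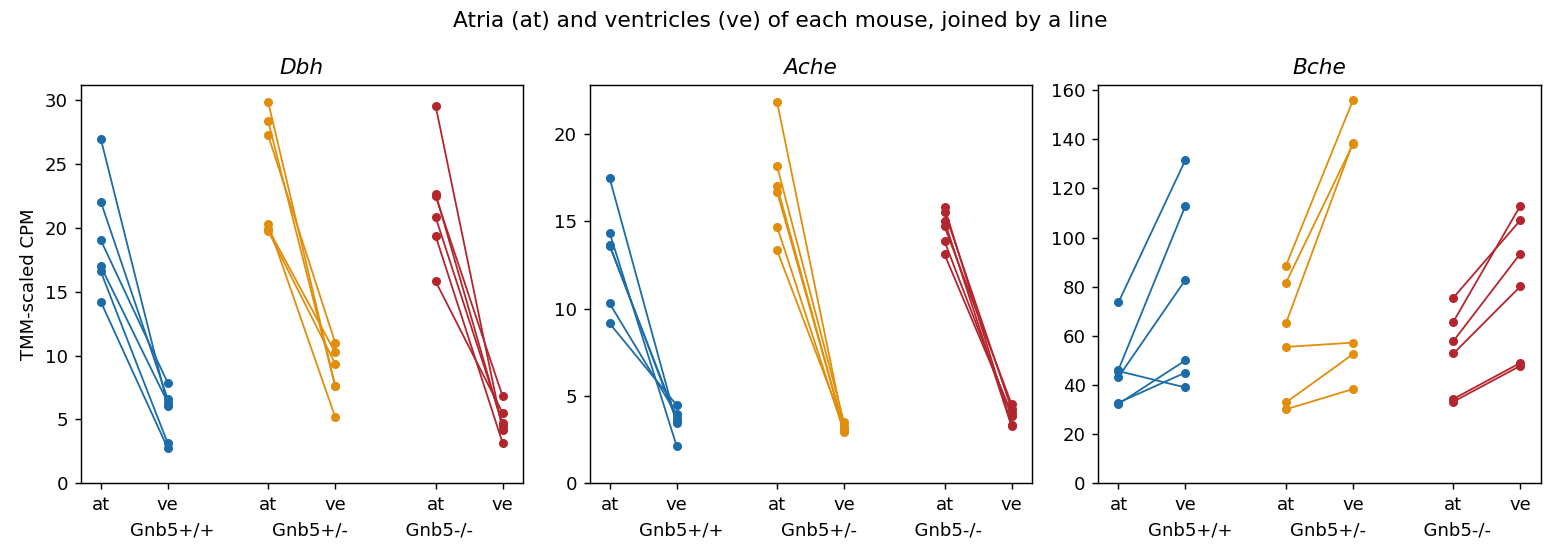
Dbh, Ache and Bche in atria and ventricles of the same mouse. The y axis is TMM-normalised CPM on a linear axis from 0, each line joins the atria and ventricles of 1 of 18 mice, and colours give the genotype. All 18 lines of Dbh and of Ache fall from atria to ventricles, and 17 of 18 lines of Bche rise.

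Th, the rate-limiting enzyme of catecholamine synthesis, was rare in atria and all but absent in ventricles. It had 0, 8, 0, 2, 16 and 2 reads in Gnb5+/+ atria, 0, 12, 29, 4, 7 and 5 in Gnb5+/- atria and 3, 16, 24, 56, 40 and 0 in Gnb5-/- atria. Ventricles had no read in 16 of 18 libraries and 1 read in each of the other 2, which were Gnb5-/-. Summed reads without TMM factors put atria at least 8.46-fold higher in Gnb5+/+ mice, against a floor of 3 reads over the group. Against the same floor they put atria at least 15.5-fold higher in Gnb5+/- mice. In Gnb5-/- mice the ratio was 61.7 (95% interval 16.8 to 515), and 75.6 (13.2 to 3021) without the mouse of replicate 4. Th was higher in atria in 14 of 18 mice and lower in 0 (exact sign-flip permutation p = 0.000122). The edgeR test with mouse as a block called it in each genotype (adjusted p = 0.000921, 0.000175 and 1.76e-05). But Th passed the filter of that fit only by its atrial reads, the side where it is high. The edgeR calls are therefore set in part by the filter and add no support. DESeq2's Wald test did not call Th (adjusted p = 0.288, 0.112 and 0.0758).

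Prph, the intermediate filament peripherin of peripheral neurons, was rare as well. Its Gnb5+/+ atria had 5, 8, 6, 11, 7 and 7 reads, its Gnb5+/- atria 10, 23, 8, 11, 4 and 7, and its Gnb5-/- atria 14, 18, 10, 161, 5 and 6. Its ventricles had 0 to 7 reads. Except for the Gnb5-/- library with 161 reads, the highest atrial count was 23. Prph was higher in atria in 16 of 18 mice (exact sign-flip permutation p = 0.000648). By summed reads without TMM factors, the ratio of atria to ventricles was 1.48 (95% interval 0.894 to 2.48) for Gnb5+/+ mice. It was 5.15 (2.63 to 11.3) for Gnb5+/- mice and 13.6 (7.91 to 25.2) for Gnb5-/- mice. Of the 214 atrial reads of Gnb5-/- mice, 161 came from the single library. Without that mouse 53 atrial against 12 ventricular reads gave 4.02 (2.12 to 8.27). In the fit of both chambers Prph was below the filter on low counts. It passed, by its atrial reads, when the mouse of Gnb5+/- replicate 4 was left out, in a fit that keeps the Gnb5-/- library with 161 reads. The log2 differences of Prph were then 0.16, 1.82 and 2.56, given as sizes only.

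Phox2a, a homeodomain factor that autonomic neurons require, did not run with the other neuronal members. Its reads were 7, 1, 7, 5, 1 and 1 in Gnb5+/+ atria and 3, 11, 7, 11, 11 and 6 in Gnb5+/+ ventricles. In Gnb5+/- mice they were 1, 2, 10, 5, 4 and 0 in atria and 5, 4, 4, 21, 2 and 9 in ventricles, and in Gnb5-/- mice 4, 2, 6, 25, 0 and 3 against 5, 9, 5, 1, 4 and 12. Ventricles were thus the higher tissue in 13 of 18 mice (exact sign-flip permutation p = 0.00378). The log2 difference of atria minus ventricles was -1.79 for Gnb5+/+ mice, -1.87 for Gnb5+/- mice and -0.85 for Gnb5-/- mice, with edgeR adjusted p of 0.0375, 0.0339 and 0.322. The first 2 calls were each lost when any of 4 mice of the group was left out, and without the Gnb5-/- mouse of replicate 4 the last value was -1.82 (edgeR adjusted p = 0.0326). The part of Inppl1 reads in the counts of Phox2a was not tested.

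Of the 9 members, 5 passed the filter on low counts for atria against ventricles. Th passed it only by its atrial reads, so its calls are set in part by the filter. In Gnb5+/+ and Gnb5+/- mice 5 of 5 were called, and in Gnb5-/- mice 4 of 5, where 54.2%, 59.2% and 58.1% of all 16507 genes tested were called. With shares that high over all genes, a call between chambers is common, and the sizes of the differences carry the description.

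The direction of these differences was compared between genotypes by an interaction term with mouse as a block. No member was called, and no gene of 16507 was called in either interaction (0% in both), with 865 genes for Gnb5+/- and 640 for Gnb5-/- at an unadjusted p below 0.05 in edgeR, and 1 and 15 genes called by DESeq2. The largest Gnb5+/- interaction among the members that pass was that of Ache, at 0.55 (SE 0.22, edgeR adjusted p = 0.908), and the Gnb5-/- interaction of Ache was 0.06. Dbh gave -0.34 and 0.32, Bche 0.04 and 0.06, and Phox2a -0.08 and 0.94 (95% interval -1.07 to 2.95). That of Th could not be estimated, since its Gnb5+/+ and Gnb5+/- ventricles are at 0.

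No member passed the test for genotype in any tissue. Of the 9 members, 5 passed the filter in atria, 3 in ventricles, 3 in cerebellum, 6 in hippocampus and 8 in cerebral cortex, and 0 were called in each of the 7 comparisons with Gnb5+/+. Among all genes tested, 0.253% were called for Gnb5-/- atria, 0.0124% for Gnb5+/- atria, 0.188% for Gnb5-/- ventricles and 0.0202% for Gnb5+/- ventricles. In Gnb5-/- brain, 0.0817% were called in cerebellum, 0.165% in hippocampus and 0.0557% in cortex. Beside shares that low, 0 of 9 is near the background.

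Among the abundant members in Gnb5-/- atria, the log2 difference from Gnb5+/+ was 0.16 for Ache (SE 0.13, 95% interval -0.10 to 0.43, edgeR adjusted p = 0.829), 0.17 for Dbh (SE 0.16, -0.14 to 0.49, edgeR adjusted p = 0.853) and 0.22 for Bche (SE 0.27, -0.30 to 0.75, edgeR adjusted p = 0.895). These intervals leave room for differences of the size of the upper bounds. In Gnb5-/- ventricles the values were 0.12 for Ache, 0.08 for Bche and -0.20 for Dbh, with edgeR adjusted p of 1.00 for each.

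The rare members had larger values in Gnb5-/- atria that rested on few libraries. Prph differed by 1.85 (SE 0.67, edgeR adjusted p = 0.417), and by 0.32 without the library of replicate 4. Th averaged 0.171 ± 0.229 CPM (SD, n = 6) across Gnb5+/+ atria, 0.289 ± 0.344 across Gnb5+/- atria and 0.610 ± 0.518 across Gnb5-/- atria, and differed by 1.92 between Gnb5-/- and Gnb5+/+ (SE 0.93, edgeR adjusted p = 0.624; exact permutation p = 0.158). Without that library the value for Th was 1.56. Its highest Gnb5+/+ library, at 0.567 CPM, was above 3 of the 6 Gnb5-/- libraries. Chat, Slc18a3, Slc5a7 and Phox2a did not pass the filter. Without a filter their values were 3.55, 3.56, 3.81 and 0.57 (edgeR adjusted p of 0.530 or more), and without that library too they were -0.58, 0.59, 1.70 and -0.40 (adjusted p = 0.744 to 0.968).

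In Gnb5+/- atria, Ache was 0.38 higher (SE 0.13, edgeR p = 0.0107, adjusted p = 0.630; exact permutation p = 0.0519) and Dbh 0.33 higher (SE 0.16, edgeR adjusted p = 0.694; exact permutation p = 0.0866). All 6 libraries lay above the Gnb5+/+ mean for each of these genes, but the groups overlapped and neither passed the correction. In Gnb5+/- ventricles Dbh was at 8.50 ± 2.13 CPM (SD, n = 6) against 5.46 ± 2.05 CPM in Gnb5+/+, a log2 difference of 0.63 (SE 0.24, edgeR p = 0.0149, adjusted p = 0.961; exact permutation p = 0.0476), with 5 of 6 above the Gnb5+/+ mean. Prph had 4, 6, 2, 3, 7 and 5 reads in Gnb5+/+ ventricles, 0, 0, 3, 3, 2 and 2 in Gnb5+/- and 1, 2, 6, 2, 0 and 3 in Gnb5-/-. Its exact permutation p values were 0.0281 and 0.0260, at counts near the floor. Over the 63 exact tests between genotypes (9 genes in 7 comparisons) 4 fell below 0.05, and the lowest was that 0.0260.

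In the Gnb5-/- atrial library of replicate 4, many but not all transcripts of neurons were high together. Beside the 6 rare members, it had the most reads of the 18 atria for the ganglionic nicotinic receptor subunits Chrna3 (122 of 272 reads) and Chrnb4 (144 of 596), for the neuropeptides Npy (119 of 183) and Cartpt (45 of 63), and for Syt1 (202 of 434), Tubb3 (242 of 701) and Nefl (148 of 248). Summed by list, the library ranked 1 for pan-neuronal (51.6 CPM, the next 29.7 CPM), nicotinic receptor (7.88 and 3.60 CPM) and neurotrophic receptor genes (41.1 and 29.3 CPM). By a small margin it also ranked 1 for sensory neuron genes (9.36 and 9.30 CPM) and for Schwann cell and glial genes (194 and 185 CPM). It ranked 5 for catecholamine handling, 6 for autonomic neuropeptides and 10 for autonomic transcription factors. It was not extreme for the abundant members, ranking 7 for Ache, 13 for Dbh and 14 for Bche among the 18. Transcripts of other tissues were also high in it, with Ucp1 of brown fat at 340 of 674 reads and a summed adipocyte list that ranked 3. The part of these tissues in its counts of the members was not tested.

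The neuronal lists around the members held genes called in both directions between the chambers, and of all 16507 genes tested 27.2%, 30.2% and 29.4% were called higher in atria and 27.1%, 29% and 28.7% lower in Gnb5+/+, Gnb5+/- and Gnb5-/- mice. Of 8 pan-neuronal genes that passed the filter, 5, 3 and 6 were called higher in atria and 2, 2 and 1 lower in Gnb5+/+, Gnb5+/- and Gnb5-/- mice. Snap25 rose by 3.99 and Chgb by 1.56 in Gnb5+/+ atria, while Stmn2 fell by 1.07 on the log2 scale. The value of Snap25 rests on few libraries. Over the 17 atria other than that of Gnb5-/- replicate 4 it had a median of 1 read, 0 reads in 6 and at most 76. The sum of all 16 pan-neuronal genes ran from 14.7 to 51.6 CPM in atria and from 16.4 to 36.5 CPM in ventricles, so the groups overlapped, against 4001 to 9090 CPM in brain. Of 3 neuronal nicotinic receptor genes tested, 1, 2 and 2 were higher and 1, 0 and 0 lower, with Chrnb4 at 2.96 and Chrnb2 at -0.97 in Gnb5+/+ mice.

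Genes that act beside Th and Dbh in catecholamine handling split evenly. Of 9 tested, 4 were higher and 4 lower in atria in each genotype, with a median of 0.12 in Gnb5+/+ mice against 0.0027 over all genes. Slc18a2, the vesicular monoamine transporter, rose by 2.55 and Maoa, which breaks noradrenaline down, by 1.25, while Gch1, which makes the cofactor of Th, fell by 0.79 on the log2 scale in Gnb5+/+ mice. Of 4 autonomic transcription factors tested, 2, 3 and 3 were higher and 1 lower, with Gata3 at 2.05, Gata2 at 0.50 and Hand2 at -0.69. Of 8 receptors for neurotrophic factors tested, 3, 5 and 4 were higher and 2 lower. Gfra1 fell by 2.13 and Ret, its signalling partner, fell by 1.35 on the log2 scale in Gnb5+/+ mice.

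Other partners of the members were examined. Of the 2 anchors of acetylcholinesterase, Colq, which ties Ache to the basal lamina of muscle, fell by 2.19 in Gnb5+/+ atria, opposite to Ache itself. Of the list of autonomic neuropeptides and related transmitter genes, 2 were tested and both were called higher, Penk, which encodes enkephalin, at 1.45 and Nos1, the neuronal nitric oxide synthase, at 2.63. Of 3 sensory neuron genes, 1 was higher and 2 were lower, with Avil at 1.09, P2rx3 at -1.54 and Tac1 at -4.38. In the comparisons of genotype none of these neuronal lists had a called gene. Of all lists examined, the genes called were Tbx18 of the sinoatrial list at -0.66 (edgeR adjusted p = 0.0136) and Drd2 of the striatal list at 0.85, both in Gnb5-/- ventricles.

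Lists of other cell types differed between the chambers beside the members. Of all genes tested, 27.2%, 30.2% and 29.4% were called higher in atria and 27.1%, 29% and 28.7% lower in Gnb5+/+, Gnb5+/- and Gnb5-/- mice. Of 9 Schwann cell and glial genes tested, 4, 5 and 4 were higher in atria and 0 lower, led by Mbp at 2.55, and their sum was 154 to 194 CPM in atria against 91.9 to 109 CPM in ventricles. Mesothelial genes summed to 217 to 553 CPM in atria against 23.9 to 50.3 CPM, and 5 of 5 were called higher in each genotype. Of 6 sinoatrial node genes tested, 4 were higher in each genotype, and 1, 0 and 1 lower, with Vsnl1 at 3.56, Shox2 at 2.47 and Tbx18 at 1.09 in Gnb5+/+ mice. Adipocyte genes summed to 6.48 to 358 CPM in atria against 1.68 to 15.9 CPM in ventricles, and of 7 tested 3, 6 and 6 were higher and 0 lower. Of 3 thymus and lymphocyte genes tested 1, 2 and 1 were higher, and the 1 lung gene tested was higher in each genotype. The part of these cells in the levels of Ache, Dbh, Th and Prph was not tested.

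Per length of transcript, which allows levels of different genes to be set side by side, Bche exceeded Ache in all 36 heart libraries and in 0 of 36 brain libraries. Mean CPM per kilobase of exon was 7.81 for Bche and 3.23 for Ache in atria, 12.6 and 0.765 in ventricles, and 0.850 and 9.97 in cerebellum. The ratio of Bche to Ache had a median of 2.51 (1.27 to 4.90) over the 18 atria and 14.8 (5.97 to 36.2) over the 18 ventricles, ranges that do not overlap. In brain the inverse ratio of Ache to Bche had medians of 12.3 in cerebellum, 12.8 in hippocampus and 14.2 in cortex, within 8.79 to 17.4 over the 36 libraries. The heart thus held mainly butyrylcholinesterase message and the brain mainly acetylcholinesterase message in every library.

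Dbh and Th were likewise reversed between heart and brain. Mean Dbh was 8.09 CPM per kilobase in atria against 0.151 for Th, a 53.6-fold excess, and Dbh was above Th in 36 of 36 heart libraries. In cerebellum Th exceeded Dbh by 97.3-fold and in cortex by 7.93-fold, in all 24 libraries. The cerebellar ratio was 194 in Gnb5+/+ and 65.2 in Gnb5-/- mice, where 18 reads of Dbh came from the library of replicate 2, and over the 11 other cerebella it was 174. In hippocampus both were at 0.17 CPM per kilobase, and Dbh had more reads than Th in 6 of 12 libraries. These were 1 of 6 in Gnb5+/+ mice, with a ratio of mean Dbh to mean Th per kilobase of 0.709. They were 5 of 6 in Gnb5-/- mice, with a ratio of 1.41. The difference of this ratio between genotypes was not tested.

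**Figure D4:**
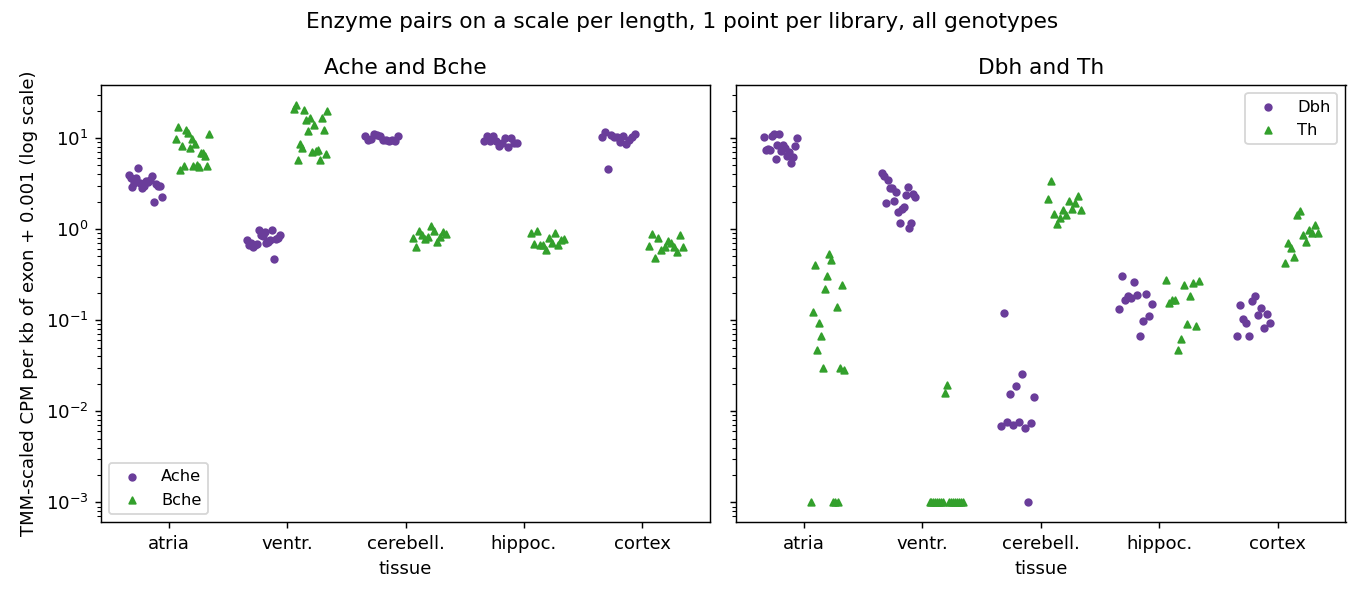
Levels per kilobase of exon, as TMM-normalised CPM per kilobase plus 0.001 on a log axis, for Ache with Bche and for Dbh with Th in 5 tissues, with 1 point a library. Bche is above Ache in all 36 heart libraries and below it in all 36 brain libraries, and Dbh is above Th in all 36 heart libraries.

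In brain, the cholinergic transcripts were highest in the cortex libraries. Chat lay at 1.28, 3.10 and 5.04 CPM (lowest, median, highest) in Gnb5+/+ cortex, and had 11 reads in the 6 Gnb5+/+ hippocampi and 1 in the 6 cerebella, none of which overlapped the cortex. Cortex was 91.4-fold (50.8 to 184) above hippocampus by summed reads, and 1039-fold above cerebellum with an interval of 186 to 41076, since it rests on 1 cerebellar read. Without the Gnb5+/+ hippocampus of replicate 5 or of replicate 6 the ratio of cortex to hippocampus for Chat was 92.9 and 94.0. Slc5a7 lay at 3.04, 5.53 and 8.94 CPM in Gnb5+/+ cortex and averaged 0.649 CPM in hippocampus and 0.172 CPM in cerebellum. Slc18a3 lay at 0.629, 1.34 and 2.62 CPM in cortex and averaged 0.0596 CPM in hippocampus. A list of 6 genes of the striatum, where cholinergic interneurons are dense, summed to 232 to 519 CPM in Gnb5+/+ cortex. In hippocampus and cerebellum of these mice it summed to 43.1 to 53.6 CPM and 116 to 132 CPM. In Gnb5-/- cortex it summed to 388 to 755 CPM, with the highest sum in the library without a read of Chat. The part of striatal tissue in the cortical levels of the members was not tested.

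Between Gnb5+/+ brain regions, with mouse as a block, 7 of 8 members that passed the filter were called for cerebellum against cortex, where 63.1% of all genes were called. The log2 differences were -9.17 for Chat (edgeR adjusted p = 2.72e-12), -8.00 for Slc18a3, -4.96 for Slc5a7, -3.54 for Prph and -3.50 for Dbh, all lower in cerebellum, while Th at 1.07 and Bche at 0.44 were higher. Within cerebellum alone Chat, Slc18a3, Slc5a7, Prph and Dbh did not pass the filter, nor did Chat and Slc18a3 within hippocampus. They entered this fit by the regions where they are higher. Their calls against those regions are thus set in part by the filter, and the sizes carry the description. For hippocampus against cortex 4 of 8 were called (27.2% of all genes), with Chat at -6.34, Slc18a3 at -4.37, Slc5a7 at -3.08 and Th at -2.27. For cerebellum against hippocampus 6 of 8 were called (61.8% of all genes), with Th at 3.34 and Dbh at -3.66 furthest apart. Ache passed in none of the 3, with 0.03, -0.10 and 0.13, each with a 95% interval within -0.30 to 0.34, and was thus level across regions to within that range.

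Th was highest in cerebellum, at 4.32 ± 0.737 CPM (SD, n = 6) in Gnb5+/+ mice, ahead of cortex at 2.16 ± 0.309 and hippocampus at 0.445 ± 0.197 CPM. Dbh averaged 0.360 CPM in hippocampus and 0.323 CPM in cortex, which did not differ beyond their spread, and 0.0253 CPM in cerebellum. Ache averaged 44.4, 42.0 and 45.4 CPM and Bche 6.04, 5.17 and 4.64 CPM in cerebellum, hippocampus and cortex. Prph averaged 0.727 CPM in cortex and 0.616 CPM in hippocampus, and 0.0578 CPM in cerebellum. Phox2a had 2, 9 and 7 reads in the 12 cerebella, hippocampi and cortices.

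Set against the mean of the 3 brain regions in Gnb5+/+ mice, 6 of 8 members were called in atria and 7 of 8 in ventricles, where 89.3% of all genes were called in each. Dbh was 128-fold higher in atria and 34.3-fold higher in ventricles, and Bche 8.31-fold and 13.3-fold higher. On the log2 scale Ache was at -1.75 in atria and -3.68 in ventricles, Th at -3.39 and -9.16, and Slc5a7 at -4.21 and -4.72. Chat was at -2.63 (edgeR adjusted p = 0.0195) and -4.97, and Slc18a3 at -2.51 (edgeR adjusted p = 0.0581) and -4.85. Chat, Slc18a3, Slc5a7 and Th passed the filter of this fit by their brain reads. In Gnb5+/+ atria they had 2, 2, 8 and 28 reads in all, and in Gnb5+/+ ventricles 0, 0, 4 and 0. Their calls are thus set in part by the filter, and their sizes rest on few heart reads. Prph, at -0.31 and -0.48, was called in neither (edgeR adjusted p = 0.343 and 0.183). The median gene was at -0.18 in atria and -0.27 in ventricles, so scaling between such unlike tissues is uncertain to at least that size.

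No member that passed the filter was called for genotype in a brain region. In Gnb5-/- cerebellum Ache was 0.11 higher on the log2 scale (edgeR adjusted p = 0.583; exact permutation p = 0.0325) and Bche was at -0.15. Th differed by 0.02, and by -0.24 without the library with choroid plexus transcripts. That library also had 18 reads of Dbh, against 1 to 3 in the other Gnb5-/- cerebella. In Gnb5-/- hippocampus Dbh was at 0.546 ± 0.176 CPM (SD, n = 6) against 0.360 ± 0.139 CPM, a log2 difference of 0.59 (SE 0.28, edgeR adjusted p = 0.656; exact permutation p = 0.0628), and Th was at -0.37. In Gnb5-/- cortex Prph differed by 0.47 (edgeR adjusted p = 0.488) and Chat by -0.19, or by 0.07 without the library that had no read of Chat. That library had 39 reads of Slc18a3 and 93 of Slc5a7, and its Ache, at 20.9 CPM, was below the other 5, which were at 46.9 CPM or more. It is the library whose erythroid, sensory, neuropeptide and pan-neuronal sums stood apart, and the part of that difference in its counts of the members was not tested.

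Bche varied between mice of a group more than the other abundant members did: in each of the 6 heart groups its SD relative to its mean was above those of Ache and Dbh. With genotype means subtracted, the log2 level of Bche in atria and in ventricles of the same mouse correlated at r = 0.87 and rho = 0.88 over 18 mice (permutation p = 1e-05, the smallest 100000 resamples can give, and 2e-05; adjusted p = 7.5e-05 and 0.0003 over 15 relations). Without the 2 mice farthest from the median r was 0.84, and within genotypes it was 0.73 for Gnb5+/+ mice, 0.92 for Gnb5+/- mice and 0.98 for Gnb5-/- mice. For Dbh r was 0.30 (permutation p = 0.231) and for Ache -0.38 (permutation p = 0.128). The differences between these correlations were not tested.

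Between members in atria no pair passed the correction over 15 relations. The pair of largest size was Ache with Th, at r = -0.42 (rho = -0.44, permutation p = 0.0846 and 0.0709, adjusted p = 0.423 and 0.355). The protein-coding genes whose atrial levels were most like that of Th over the 18 libraries were Bmp2 (r = 0.93) and Shox2 (r = 0.85), a sinoatrial node factor. With Hcn4, the pacemaker channel of the node, chosen after its values were seen, Th correlated at r = 0.83 and rho = 0.83, values that describe these libraries. Without the 2 farthest mice r was 0.76, and within genotypes it was 0.95 for Gnb5+/+ mice, 0.17 for Gnb5+/- mice and 0.99 for Gnb5-/- mice. Hcn4 had 62 to 1665 reads in the 18 atria.

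**Figure D5:**
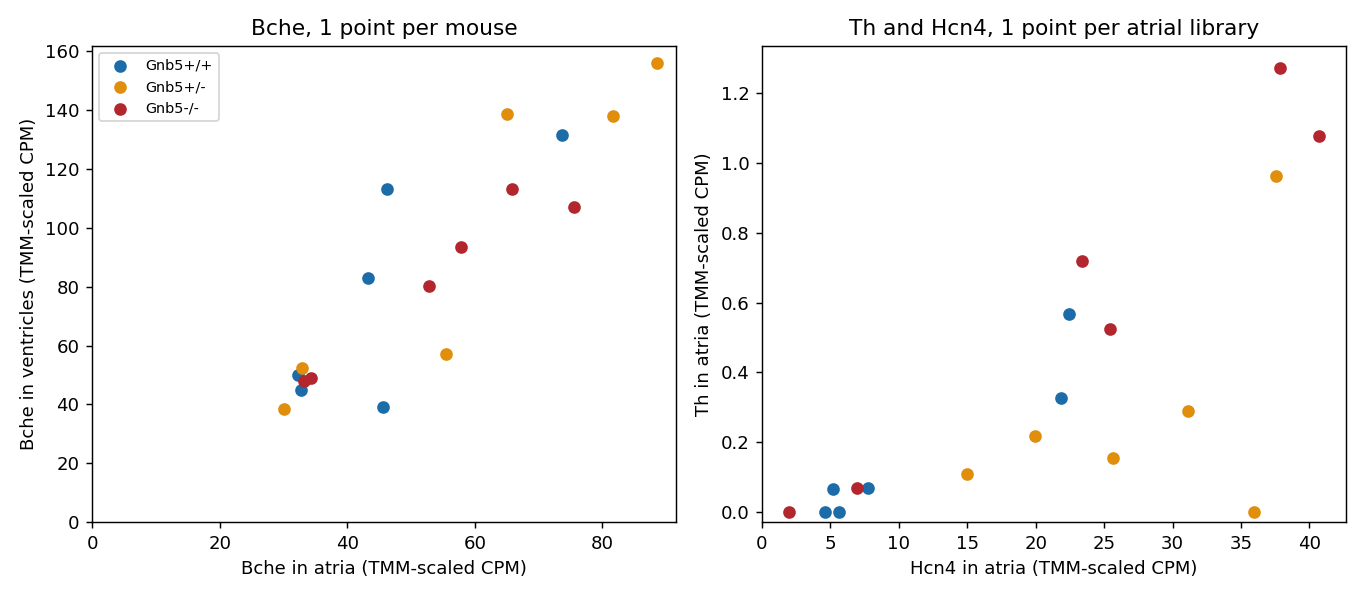
Mouse-to-mouse variation of Bche and Th, with 1 point a mouse and colours for genotype. The left panel plots Bche in ventricles against Bche in atria (TMM-normalised CPM), and the right panel Th against Hcn4 in atria (same unit, linear axes). Bche runs together in both chambers (r = 0.87) and Th against Hcn4 gives r = 0.83, both from log2 levels with genotype means subtracted, and a Gnb5+/- mouse with high Hcn4 has no read of Th.

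For the other members that passed the filter in atria, the genes most like Ache were Rtl6 (r = 0.84) and Pomgnt2 (0.81), those most like Dbh were 1700080O16Rik (0.90) and Adora1 (0.81), and those most like Prph were Npnt and Iqsec3 (0.78 each). The genes most like Bche were Lxn and Arhgef26 (0.84 each). These were picked as the largest of 14200 protein-coding genes, so their r describes these 18 libraries only.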

How the data were processed

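RNA-seq libraries of 5 mouse tissues were grouped by genotype and tissue from the labels. Per the labels, the authors prepared stranded total RNA libraries, trimmed reads with cutadapt 1.8, aligned them with STAR 2.5.3a to GRCm38 and counted them on Ensembl genes with HTSeq 0.9.1, and they deposited raw counts per gene. Symbols were matched for 53620 of 53715 genes, and 5 rows that name no gene were left out. No 2 libraries were identical. Atria and ventricles of a mouse were paired by the mouse number in the labels, and their deviations correlated over 0.1 in 17 of 18 mice.

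Counts were tested with edgeR 4.0.16 in R 4.3.3 (quasi-likelihood, TMM, filterByExpr with a minimum of 10), adjusted by Benjamini-Hochberg over all genes and called below 0.05. Genotypes were compared within a tissue by genotype alone, and tissues with mouse as a block. Levels are TMM CPM over all 72 libraries. Ratios of summed reads use library totals without TMM factors. Single genes were compared by exact permutation of log2 CPM with a prior count of 2, over 924 divisions, with a smallest p of 0.00216, or by sign flips of pairs. Code was tested on simulated data. Alternatives were DESeq2 1.42.0, RLE factors, no filter, a minimum of 30, the replicate number as a block or no mouse block, CPM without TMM factors, and each heart mouse left out. All members are named, with up to 4 called genes of each list, the 2 most similar genes, and genes that overlap. Ratios without single libraries were added after the data were seen. Other genes, among them Gabra6, C1ql2, Rorb and those of the libraries that stand apart, were picked with their values in view. Results for some genes that this rule selects are left out here. The members and lists were chosen with earlier results of these data known.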

Additional observations from a re-analysis of the deposited data

Results flagged for a closer look

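Of 81 groups of 6 libraries (a member in a tissue and genotype), 16 had a highest or lowest library whose gap to its neighbour exceeded 0.625 of the range, Dixon's critical value. Chance flags about 1 in 20 groups where values are normally distributed. Many groups here hold few reads and several flags share 1 library, so the count of flags cannot be judged against that rate. In atria, the Gnb5-/- library of replicate 4 was far above its group for Chat (0.909 CPM), Slc18a3 (0.863 CPM), Slc5a7 (3.07 CPM), Phox2a (0.568 CPM) and Prph (3.66 CPM). The Gnb5+/- library of replicate 4 was high for Slc5a7 (1.802 CPM), that of replicate 3 for Th (0.962 CPM), and the Gnb5+/+ library of replicate 6 for Bche (73.6 CPM, with the next at 46.2 CPM). In ventricles, the Gnb5+/- library of replicate 4 was high for Phox2a (1.20 CPM).

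In brain, Gnb5+/+ cerebella were flagged in replicate 5 for Slc5a7 (0.383 CPM) and in replicate 6 for Ache (48.1 CPM), and Gnb5+/+ hippocampus in replicate 6 for Slc5a7 (1.02 CPM) and Phox2a (0.1003 CPM). The Gnb5-/- cerebellum of replicate 2 was high for Dbh (0.323 CPM). The Gnb5-/- cortex of replicate 3 was low for Ache (20.9 CPM) and high for Prph (1.85 CPM). The causes were not tested.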

How the results depend on the processing

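Of 462 values of single members under the alternatives that keep all mice, 452 kept their direction and their side of the threshold, and of 702 with 1 heart mouse left out, 673. Between chambers, a count minimum of 30 left 3 members called in Gnb5+/+ and in Gnb5+/- mice instead of 5, since fewer members then passed the filter. With 1 mouse left out, 4 to 5, 4 to 6 and 4 to 5 members were called in Gnb5+/+, Gnb5+/- and Gnb5-/- mice, and 0 for genotype. Without the mouse block, Bche lost its call (adjusted p = 0.0541, 0.0644 and 0.109). Phox2a lost it without Gnb5+/+ replicates 2, 4, 5 or 6 (0.0692 to 0.116) and without Gnb5+/- replicates 1, 2, 4 or 6 (0.0601 to 0.163). Of 90 mean levels 83 moved by less than 1 SD. CPM without TMM factors moved Ache in ventricles to 2.23, 1.86 and 2.51, Dbh to 3.41, 4.98 and 3.07, and Bche in Gnb5-/- ventricles to 53.4. The causes were not tested.

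Counts of all genes called depended on the tool. DESeq2 called 8 in Gnb5+/- atria (edgeR 2), 113 in Gnb5-/- atria (41), 62 in Gnb5-/- ventricles (28), 62 in cerebellum (14), 110 in hippocampus (29) and 35 in cortex (10), and 1 and 15 in the Gnb5+/- and Gnb5-/- interactions (0). With no filter the interactions gave 89 and 97, and with no mouse block that of Gnb5-/- gave 2. Replicate numbers join different mice between genotypes, and at most 1 of 6 numbers correlated over 0.1, so they do not pair. With the replicate block 0 genes were called in Gnb5+/- ventricles (3 without), 5 in cerebellum, 19 in hippocampus and 6 in cortex, and no member's call changed. Leaving out 1 mouse gave 2 to 6 and 24 to 62 genes in Gnb5+/- and Gnb5-/- atria, 1 to 5 and 17 to 42 in ventricles, and 0 to 1 and 0 to 4 in the interactions. Leaving out the Gnb5-/- cerebellum of replicate 2 gave 62 and the Gnb5-/- cortex of replicate 3 gave 22, both chosen after the data were seen.

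Some signs turned. Without Gnb5+/- replicate 3 Th in Gnb5+/- atria went from 0.81 to -0.0367, and without Gnb5-/- replicate 4 the Gnb5-/- interaction of Phox2a from 0.94 to -0.028. With the replicate block Th in cerebellum was at -0.0605 and Slc18a3 in cortex at 0.082. Without the Gnb5-/- cerebellum of replicate 2 Th was at -0.24. Without the Gnb5-/- cortex of replicate 3, Th was at 0.0257, Chat at 0.0662, Ache at 0.105, Bche at 0.0406 and Slc18a3 at 0.00507 in cortex, and in Gnb5+/+ mice Ache (0.13) and Bche (0.27) passed for cerebellum against hippocampus (adjusted p = 0.0486 and 0.0416). With 1 mouse left out, Th in Gnb5+/- atria ran from -0.0367 to 1.76 and Bche in Gnb5-/- ventricles from -0.0623 to 0.31. Gnb5+/- interactions ran from -0.80 to 0.36 for Phox2a and -0.088 to 0.22 for Bche, and those of Gnb5-/- from -0.10 to 0.21 for Ache, -0.0685 to 0.24 for Bche and -0.028 to 1.35 for Phox2a. Depth limits Chat, Slc18a3, Slc5a7, Th, Prph and Phox2a in heart, where 1 library can set a group's mean.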

Other observations

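The genes whose levels ran with Bche across mice lay largely on its own chromosome. Of the 20 protein-coding genes of largest correlation with Bche in size over the 18 atrial libraries (0.78 to 0.88), 15 were on chromosome 3, between bases 58616300 and 98753812, where Bche itself starts at 73635808. Chromosome 3 holds 4.82% of the 14200 protein-coding genes tested. Of the 15, 7 ran with Bche and 8 against it. Tpm3, a tropomyosin, was at r = -0.86 in atria and -0.85 in ventricles, Chd1l at -0.80 and -0.93, the cathepsin Ctsk at -0.83 and -0.84, and Tmem144 at 0.82 in both. Of the 15, 13 kept their sign in ventricles, and the exceptions were Lxn (0.84 in atria, -0.74 in ventricles) and Erich6 (0.78 and -0.07). In ventricles 13 of the 20 genes of largest correlation with Bche were on chromosome 3, which holds 4.79% of those tested. For the other members 0 to 3 of 20 lay on the member's own chromosome. These genes were picked for their correlation, so the values describe these mice, with no test.

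Among the genes that run with the members in ventricles, those most like Ache were Plbd2 (r = 0.90) and Abcc8 (0.88), those most like Dbh Slc36a2 (0.80) and Itgb6 (0.78), and those most like Bche E130311K13Rik (0.87) and Gm34302 (0.86), both of them also on chromosome 3.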
